A study of Homo sapiens with 14 samples.

Results

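A549 cells exposed to 1 µM MS023 for 15 min were compared with untreated A549 cells that carry the same 15 min label. The comparison rests on 4 of the 14 PRO-seq libraries of the series, 2 MS023 libraries and 2 untreated libraries, chosen by their sample labels alone. A549 is an established human lung adenocarcinoma line, and MS023 inhibits the type I protein arginine methyltransferases. The solvent was 0.01% DMSO in both groups, per the labels, and the untreated cells had neither inhibitor nor dexamethasone. The other groups drawn on below received 1 µM GSK591, a PRMT5 inhibitor, for 15 min, MS023 with 100 nM dexamethasone (Dex) for 15 min, or MS023 alone for 3 h, with 2 libraries each. Every sample was grown from this 1 line. The labels number the samples and do not say whether they came from separate cultures, so the p-values measure the spread between these libraries, which may be technical.

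PRO-seq lets engaged RNA polymerases in permeabilised cells add labelled nucleotides to their transcripts. The labelled RNA is then captured and sequenced, so counts are meant to report transcription under way more than RNA stocks. How far this held for the ribosomal RNA genes was not tested. Type I enzymes such as PRMT1 and CARM1 place asymmetric dimethyl marks on arginines of histones and of many RNA-binding proteins. Run-on signal comes from every polymerase: Pol I on the ribosomal DNA repeats, Pol II on protein-coding and most noncoding genes, Pol III on small RNA genes, and the mitochondrial polymerase, which reads both strands of the mitochondrial genome as long precursors. The Pol I product is a single 45S precursor that is cut into 18S, 5.8S and 28S ribosomal RNA, and its 5′ external spacer holds annotated microRNA genes.

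The sequences behind the main results are short and repeated or clustered, and are shown here for that reason. The 5.8S ribosomal RNA gene has 4 annotated copies among the genes tested, all identical over 153 bases, so its reads cannot be assigned to one copy. The copy at chr21:8439823-8439975 (plus strand, GRCh38, GENCODE 29 transcript) reads as follows.
RNA5-8SN1: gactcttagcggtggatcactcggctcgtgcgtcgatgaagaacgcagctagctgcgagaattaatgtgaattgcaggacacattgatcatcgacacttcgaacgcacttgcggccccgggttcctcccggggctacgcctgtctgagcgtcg
Mature microRNAs of 3 loci that the results touch are given from RefSeq (GRCh38.p14), with the seed, bases 2 to 8, in capitals. The locus of miR-663a lies within MIR663AHG at chr20:26208243-26208264 (minus strand), miR-3648 is shown at chr21:8987026-8987046 and miR-6724-5p at chr21:8249515-8249537 (both plus strand), and no seed is shared between them.
hsa-miR-663a: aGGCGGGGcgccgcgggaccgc
hsa-miR-3648: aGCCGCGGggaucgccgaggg
hsa-miR-6724-5p: cUGGGCCCgcggcgggcgugggg
The mitochondrial transfer RNA genes called lower were MT-TA (chrM:5587-5655), MT-TN (chrM:5657-5729) and MT-TC (chrM:5761-5826). They are neighbours on the minus strand and decode alanine, asparagine and cysteine (GENCODE 29 transcripts, GRCh38).
MT-TA: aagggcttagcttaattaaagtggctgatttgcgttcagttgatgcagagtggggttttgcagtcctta
MT-TN: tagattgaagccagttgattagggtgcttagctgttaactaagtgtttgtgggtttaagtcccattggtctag
MT-TC: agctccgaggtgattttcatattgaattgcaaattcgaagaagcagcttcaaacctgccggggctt

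Total counts were 8904573 and 5768312 in the MS023 libraries, the second being the lowest of the series, and 9606938 and 9343048 in the untreated libraries. Counts of the 2 MS023 replicates differed beyond sampling noise, as did those of the untreated pair (chi-square divided by its degrees of freedom above 2 in both), so none was treated as a duplicate. All 14 markers of A549 and lung epithelium were measured, with a summed level of 1931 to 1978 CPM in MS023 libraries and 2039 to 2132 CPM in untreated ones. These marker sums use unscaled library totals. CPM values of single genes in this text use library sizes scaled by TMM, a method that centres the bulk of genes. Markers of other cells were low in both groups: fibroblast genes summed to 8.65 to 9.01 CPM with MS023 and 6.1 to 7.49 CPM without it, with COL1A2, DCN and LUM at 3 counts or fewer, endothelial genes to 1.12 to 1.21 and 1.18 to 1.35 CPM, and leukocyte genes to 5.28 to 6.59 and 4.92 to 5.73 CPM, with the T-cell gene CD3E at 0. The 9 alveolar type II markers, of which 5 passed the count filter, summed to 43 to 48.3 CPM with MS023 and 40.1 to 43.1 CPM without it, with SFTPA1 and SFTPA2 at 0.

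edgeR's quasi-likelihood test called 40 of 21910 genes at a Benjamini-Hochberg adjusted p under 0.05 (0.183%). Of these, 18 were higher with MS023 (0.0822%) and 22 were lower (0.1%). Of the rises, 10 were ribosomal RNA, microRNA or other noncoding genes of the ribosomal DNA repeats on chromosome 21, and 3 were protein-coding. The falls held 4 mitochondrial genes, 6 nuclear pseudogenes and 8 nuclear protein-coding genes. Nuclear protein-coding genes made up 65.4% of the genes tested, and 11 of 14338 were called. Single-exon genes were 77.8% of the higher set and 54.5% of the lower set, against 17.1% of all genes tested. Many in the higher set are copies of the same sequence, as given below, so this share counts the same signal more than once. In none of the 40 did the MS023 and untreated libraries overlap, but with 2 libraries a group this held for 39.6% of all genes tested (20.4% higher, 19.2% lower). With no adjustment, 1770 genes had a p under 0.05 (8.08%), 865 of them higher (3.95%) and 905 lower (4.13%). The untreated libraries weigh heavily in the count: without untreated replicate 2 only AC009299.1 and H2BC20P were called, and without any one of the other 3 libraries 17 to 22 genes were. With library size alone as scaling, all 18 rises stayed called, but of the falls only ATP8, MT-TA and MTND1P23 did. DESeq2 gave 31 of the 40 an adjusted p and called 23, losing ATP8, MT-TA, MT-TN, MTND1P23, RN7SL4P, CR392039.3 and both MIR3687 genes.

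**Figure D1:**
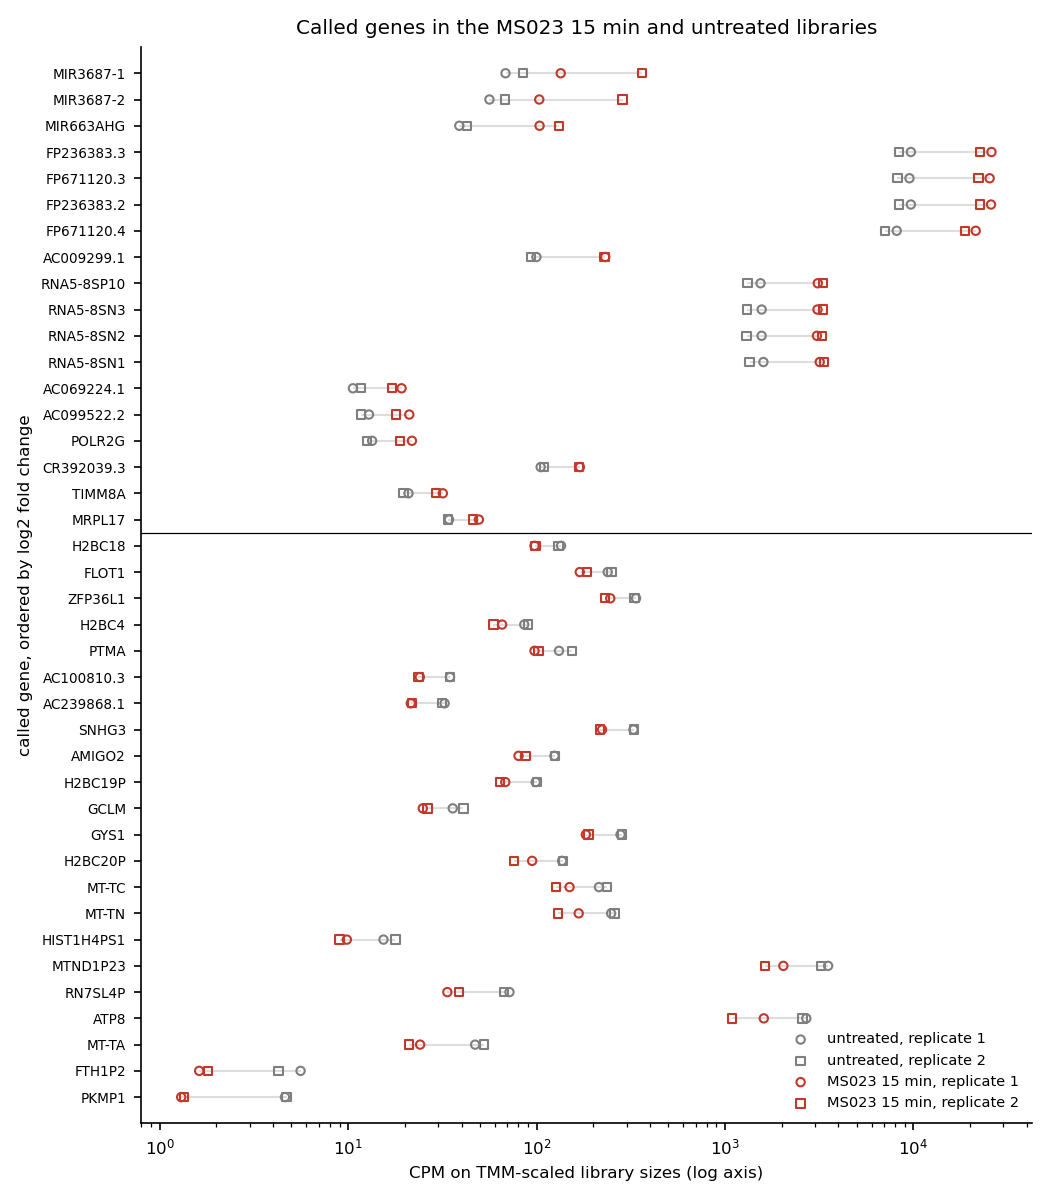
CPM of the 40 called genes in each MS023 15 min library (red) and each untreated library (grey), on a log axis and ordered by log2 fold change, with the 18 higher genes above the line and the 22 lower genes below it. The red and grey symbols of a gene do not overlap in any row, and the FP genes of chromosome 21 have the highest CPM, 7051 or more.

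All 8 genes tested within the RefSeq 45S units were above 0, and 7 of them were called higher, against 0.0822% of all genes tested. The highest counts belonged to FP236383.2, FP236383.3, FP671120.3 and FP671120.4, annotated as minus-strand noncoding genes that lie wholly within RefSeq 18S ribosomal RNA genes or the 18S pseudogene RNA18SP5, which are on the plus strand. FP236383.3 (ENSG00000281181.1, chr21:8437629-8438551) stood at 25940 and 22618 CPM with MS023 and at 9689 and 8393 CPM in untreated cells. Both MS023 libraries were thus well above both untreated ones, by 1.43 ± 0.22 (SE) on the log2 scale or 2.69-fold (edgeR adjusted p 2.1e-04). The other 3 FP genes rose by 1.40 to 1.42, with the same adjusted p, and are 99.6% to 100% identical to it over their 923 bases, so the 4 values are not independent. The strand setting of the counting is not given in the sources used here, and reads on these genes cannot be told apart from 18S reads on the opposite strand. Nor can reads of mature 18S RNA be told apart from those of the precursor being made. In untreated cells the spacer gene MIR3648-1, 2485 to 2664 bases from the start of its 45S unit, was at 34.4 and 39.6 CPM. FP236383.3, a longer gene, was at 9689 and 8393 CPM. The share of mature RNA in these counts was not tested.

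The 5.8S genes RNA5-8SN1, RNA5-8SN2, RNA5-8SN3 and RNA5-8SP10, whose shared sequence is printed above, rose by 1.15 to 1.17 on the log2 scale (adjusted p 2.1e-04 each). RNA5-8SN1 was at 3181 and 3354 CPM with MS023 and at 1598 and 1351 CPM in untreated cells, a 2.22-fold difference with no overlap. Reads of mature 5.8S RNA cannot be told apart from precursor reads here either. MIR3687-1 (ENSG00000277437.1, chr21:8208844-8208904), in the external spacer of the 45S unit RNA45SN2, showed the largest rise among called genes, 1.69 ± 0.35 (adjusted p 0.023). Its MS023 libraries were unequal, however, at 134.3 and 361.6 CPM, against 68.4 and 84.5 CPM in untreated cells, and without MS023 replicate 2 the value was 0.80 and no longer called. Its identical copy MIR3687-2 rose by 1.64 ± 0.35 (adjusted p 0.026), from 56.2 and 68.1 to 103.3 and 286.1 CPM. MIR3648-1, from the same spacer, had a value of 1.44 ± 0.33 and missed the threshold (adjusted p 0.0503), at 73.7 and 128.9 CPM with MS023 and 34.4 and 39.6 CPM without.

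Values differed by position along the 45S unit, though this was not tested. Before the unit's start, the 3 copies of RF01518, at -137 to -48 bases from it, had log2 fold changes of -0.03, 0.04 and 0.05. They were at 239 to 311 CPM with MS023 and 246 to 297 CPM without it. The MIR6724 genes farther upstream had -0.70 ± 0.53 (MIR6724-1), -0.26 ± 0.56 (MIR6724-4) and -0.22 ± 0.42 (MIR6724-3). These were at 3.45 CPM or less in every one of the 4 libraries and were not called. Within the unit, every gene from the MIR3648-1 position at 2485 bases to the 5.8S genes was above 0. Of the 8 microRNA genes of the repeats, 2 were called higher, against 0.0822% of all genes tested. Above 0 were 4, while 4, all copies of MIR6724, were below it. Their median was 0.51, against 0.00 over all genes tested. The summed ribosomal DNA repeat genes took 12.3% ± 0.12 of counts with MS023 and 4.44% ± 0.38 without it (SD, n = 2 each). With 2 libraries a group the exact permutation test, two-sided, cannot go below 0.333, and gave 0.333 here.

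**Figure D2:**
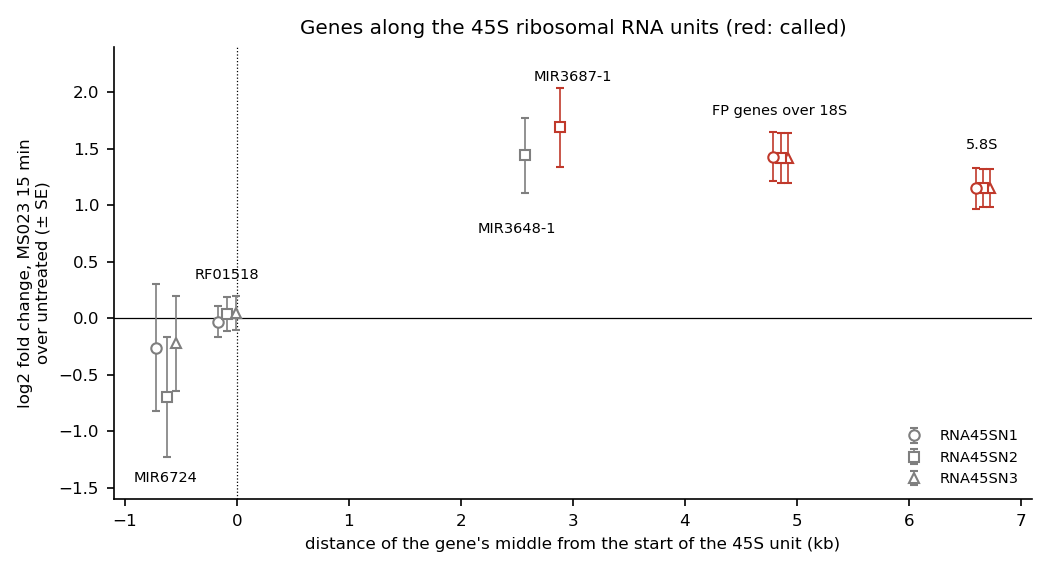
Log2 fold change (± SE) of MS023 15 min over untreated for genes annotated along the 3 RefSeq 45S units, against the distance of the gene's middle from the unit's start in kb. Genes before the start lie near or below 0, while the FP genes over 18S and the 5.8S genes, in red as called, lie between 1.15 and 1.43.

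Outside the repeats, AC009299.1 had the smallest adjusted p of all genes. It is a single-exon processed pseudogene at chr2:161281902-161282618 (ENSG00000225813.1, plus strand). Its levels were 231.3 and 228.9 CPM with MS023 and 99.8 and 93.3 CPM without, close within each group and 2.38-fold apart (log2 fold change 1.25 ± 0.17, edgeR adjusted p 1.1e-04). It was the 1 gene called under all 14 alternative settings. MIR663AHG (chr20:26186920-26251526, 19 exon blocks), the host transcript of the miR-663a locus shown above, rose from 38.9 and 42.7 CPM to 103.7 and 131.0 CPM, by 1.52 ± 0.24 (adjusted p 2.4e-04). CR392039.3, a noncoding gene at chr21:8996496-9018670 near a further microRNA pair of the ribosomal repeats, rose by 0.65 ± 0.12 (adjusted p 0.0036), from 105.1 and 109.4 to 169.7 and 167.5 CPM. The noncoding genes AC069224.1 (0.71 ± 0.15, adjusted p 0.028) and AC099522.2 (0.68 ± 0.15, adjusted p 0.038) were at 17.1 to 21.1 CPM with MS023 and 10.6 to 12.9 CPM without.

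The protein-coding genes called higher were few, and their changes small. POLR2G, which encodes the RPB7 subunit of Pol II, was at 21.8 and 18.9 CPM with MS023 and at 13.4 and 12.6 CPM in untreated cells (0.66 ± 0.15, edgeR adjusted p 0.039). TIMM8A, a chaperone of mitochondrial protein import, rose by 0.59 ± 0.12 (adjusted p 0.023) from 20.9 and 19.7 to 31.8 and 29.3 CPM. MRPL17, a mitochondrial ribosomal protein, rose by 0.48 ± 0.10 (adjusted p 0.028) from 34.3 and 34.0 to 49.4 and 45.8 CPM. With nuclear library size alone as scaling these 3 genes, AC069224.1 and AC099522.2 were no longer called.

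Mitochondrial genes took a smaller share of counts in both MS023 libraries than in either untreated one. They held 44.5% and 39.8% of counts with MS023 and 54.0% and 53.8% in untreated cells, a difference of -11.8 percentage points (exact permutation p 0.333, two-sided, the smallest this design allows). A share falls when another rises, and the ribosomal DNA share moved the other way: with ribosomal DNA repeat and Pol III genes out of the total the difference was -8.35 points. Fewer mitochondrial transcripts and more nuclear ones cannot be told apart in such data. On the TMM scale, all 13 mitochondrial messenger RNA genes were below 0, with a median of -0.64 against 0.00 over all genes. These genes are read as long shared precursors, so their values are not independent. Of the 13, 12 were lower at an unadjusted p under 0.05, as 4.13% of all genes were. The 1 called, against 0.1% of all genes called lower, was ATP8 (MT-ATP8 in GENCODE, chrM:8366-8572), an ATP synthase subunit whose exon overlaps MT-ATP6. It fell from 2699 and 2574 CPM to 1606 and 1085 CPM, by 0.97 ± 0.20 on the log2 scale (edgeR adjusted p 0.017). ND1, of respiratory complex I, had -0.88 ± 0.21 (adjusted p 0.080), at 25118 and 18804 CPM against 39519 and 41243 CPM. CYTB, of complex III, was level at -0.04 ± 0.21, with 39467 and 32016 CPM against 36639 and 36788 CPM, so its libraries overlapped.

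Of the 22 mitochondrial transfer RNA genes, 14 passed the count filter, and 3 were called lower, against 0.1% of all genes tested. Of the 14, 11 were below 0, with a median of -0.61. MT-TA, first of the sequences above, dropped from 47.2 and 52.4 CPM to 24.1 and 21 CPM, by 1.13 ± 0.21 (edgeR adjusted p 0.0040). MT-TN fell by 0.77 ± 0.17 (adjusted p 0.033), from 248.6 and 259.4 to 167.3 and 129.4 CPM. MT-TC fell by 0.70 ± 0.10 (adjusted p 2.1e-04), from 214.2 and 235.9 to 149.6 and 126.4 CPM. MT-TY, the next gene on the same strand, whose exon overlaps that of MT-TC, was at 86.0 and 71.2 CPM against 95.6 and 93.3 CPM (-0.26 ± 0.15, adjusted p 0.69). Of the 3 members above 0, the highest value was that of MT-TV, the valine transfer RNA gene beside the ribosomal RNA genes, at 10.2 and 11.1 CPM against 6.35 and 7.55 CPM (0.61 ± 0.23, adjusted p 0.43). The 12S and 16S genes were not called. MT-RNR2 (16S) was at 107454 and 90124 CPM with MS023 and 141361 and 136083 CPM without (-0.49 ± 0.24, adjusted p 0.62), and MT-RNR1 (12S) had -0.20 ± 0.22 with overlapping libraries.

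The 9 mitochondrial genes tested on the minus strand had a median of -0.54 and the 20 on the plus strand -0.64, a difference that was not tested. Nuclear copies of mitochondrial genes were mostly below 0 as well: 25 of 30 tested were below 0, with a median of -0.59, and MTND1P23 (chr1:629062-629433) was called lower. It is 99.1% identical to MT-ND1 over 352 bases, so reads of either gene may be counted at the other, and it fell from 3524 and 3228 CPM to 2039 and 1623 CPM (-0.88 ± 0.18, edgeR adjusted p 0.017).

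**Figure D3:**
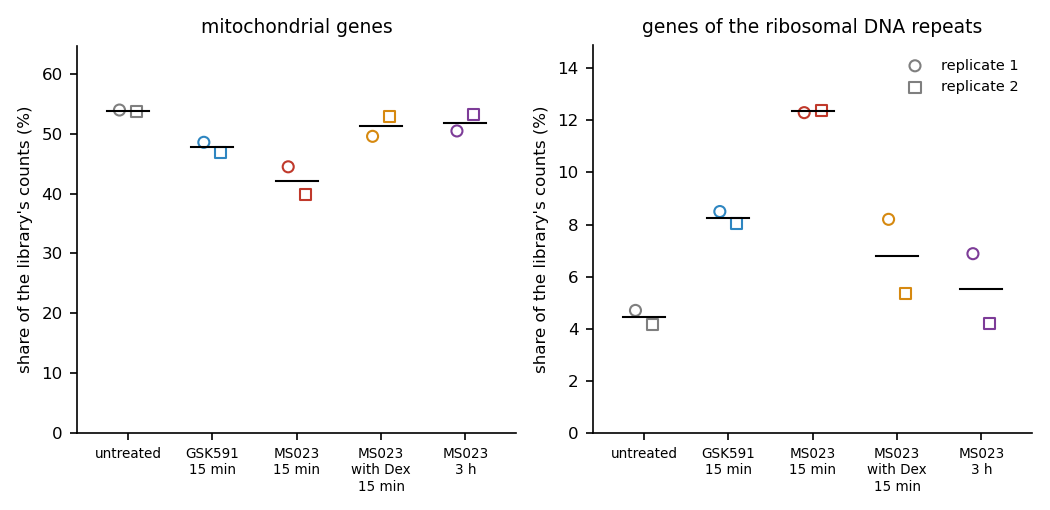
Share of each library's counts (%) taken by mitochondrial genes (left) and by genes of the ribosomal DNA repeats (right), for the untreated, GSK591 15 min and MS023 groups. Circles are replicate 1, squares replicate 2 and bars group means. The MS023 15 min libraries hold the lowest mitochondrial shares of these groups, 44.5% and 39.8%, and the highest ribosomal DNA shares, 12.3% and 12.4%.

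Replication-dependent histone genes, which are transcribed in S phase from clusters on chromosomes 1 and 6, leaned lower as a group. Of 70 such genes 56 passed the count filter and 53 were below 0. Their median log2 fold change was -0.27, against 0.00 over all genes tested. A lower value with an unadjusted p under 0.05 was found in 33, against 4.13% of all genes. Called lower were 2, against 0.1% of all genes. In 46 of the 56 both MS023 libraries lay below both untreated ones, as in 19.2% of all genes. With library size alone as scaling, which moved the median of all genes by 0.16, the histone median was -0.10, and with nuclear library size alone, which moved it by -0.16, it was -0.42. Scaling moves all genes of a library by the same factor, so the gap to all genes was bound to stay similar and is no check of it. H2B genes had the lowest median, -0.37 over 16 genes, followed by H2A (-0.27 over 12), H3 (-0.25 over 12), H4 (-0.19 over 12) and the linker histones H1 (-0.09 over 4), and differences among these were not tested.

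Both called histone genes encode H2B. H2BC4 (HIST1H2BC, chr6:26114873-26123926) was at 65.6 and 59.0 CPM with MS023 and 86.0 and 90.2 CPM without, lower by 1.41-fold (log2 fold change -0.50 ± 0.11, edgeR adjusted p 0.027). H2BC18 (HIST2H2BF, chr1:149782689-149812373) was at 97.5 and 98.5 CPM against 134.8 and 130.6 CPM (-0.44 ± 0.10, adjusted p 0.042). Among members not called, H2AC20 had -0.40 ± 0.10 (adjusted p 0.086), at 118.4 and 110.8 CPM against 148.1 and 153.8 CPM, while H1-5 was level at 0.00 ± 0.10. H3C14, with near the highest CPM of the list, was at 353.9 and 357.3 CPM against 433.0 and 463.2 CPM (-0.33 ± 0.11, adjusted p 0.31).

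Pseudogenes within the histone clusters were called too. H2BC20P and H2BC19P (HIST2H2BC and HIST2H2BD) lie on opposite strands of chromosome 1 and share 1989 identical bases, so without strand their reads cannot be told apart. H2BC20P fell from 136.6 and 137.7 to 94.7 and 76.0 CPM (-0.68 ± 0.10, adjusted p 2.1e-04), and H2BC19P from 98.9 and 100.2 to 68.2 and 64.1 CPM (-0.59 ± 0.10, adjusted p 6.3e-04). HIST1H4PS1, an H4 pseudogene at chr6:27807075-27807339, fell from 15.4 and 17.8 to 9.84 and 9.01 CPM (-0.81 ± 0.17, adjusted p 0.025). The antisense gene AC239868.1, at chr1:149861271-149862504 beside the chromosome 1 histone pseudogenes, had -0.56 ± 0.12 (adjusted p 0.037).

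Because the H2B genes leaned the same way, the promoters of the called pair are shown, 250 bases before the RefSeq start (GRCh38.p14), H2BC4 at chr6:26123927-26124176 and H2BC18 at chr1:149812371-149812620, both minus strand. Capitals mark the octamer ATTTGCAT, which binds OCT1, the CCAAT box and TATAAA, each searched on both strands, with no overlap between them.
H2BC4 promoter: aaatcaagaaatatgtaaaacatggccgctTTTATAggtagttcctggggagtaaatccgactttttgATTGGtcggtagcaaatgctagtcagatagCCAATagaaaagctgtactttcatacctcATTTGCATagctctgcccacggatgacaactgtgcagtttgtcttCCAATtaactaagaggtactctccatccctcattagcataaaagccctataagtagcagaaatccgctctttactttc
H2BC18 promoter: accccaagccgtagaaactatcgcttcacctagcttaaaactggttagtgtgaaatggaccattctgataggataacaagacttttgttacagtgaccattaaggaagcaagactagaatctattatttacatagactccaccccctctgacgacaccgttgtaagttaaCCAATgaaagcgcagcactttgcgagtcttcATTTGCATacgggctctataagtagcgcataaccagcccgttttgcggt
In windows from 250 bases before to 50 bases after the start, ATTTGCAT stood in both, 123 bases before the start of H2BC4 and 49 bases before that of H2BC18. It was in 12 of 16 tested H2B promoters (75%), in 19 of the 47 tested histone genes with a promoter in the table (40.4%) and in 1.77% of all 35116 RefSeq promoters. CCAAT was in 100% of the H2B promoters and 34.6% of all. TATAAA was in 68.8% and 11.5%. These matches describe the genes and say nothing of which factor was bound.

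Among metabolic genes, GYS1, the muscle-type glycogen synthase that builds glycogen chains, was the 1 called member of 16 glycogen genes tested. Over all genes tested, 0.1% were called lower. GYS1 (ENSG00000104812.14, chr19:48968125-48993310) was at 182.6 and 188.7 CPM with MS023 and 278.8 and 285.1 CPM without. Libraries agreed closely within each group, and the fall was 1.52-fold (log2 fold change -0.60 ± 0.10, edgeR adjusted p 8.1e-04). The list's median was 0.07, and 9 of its 16 members were above 0. GCLM, a subunit of the enzyme that starts glutathione synthesis, fell from 35.9 and 40.9 to 24.9 and 26.4 CPM (-0.59 ± 0.13, adjusted p 0.039).

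Among called genes, the largest falls by fold were at pseudogenes with few reads. PKMP1 (chr1:114535995-114537840), a processed copy of the pyruvate kinase gene PKM, had 12 and 9 counts with MS023 and 43 and 43 in untreated cells, or 1.30 and 1.35 against 4.62 and 4.71 CPM (-1.81 ± 0.39, adjusted p 0.027). PKM itself was at 270.4 and 265.5 CPM against 303.6 and 304.8 CPM and was not called (-0.18 ± 0.11, adjusted p 0.73). FTH1P2, a processed copy of the ferritin heavy chain gene FTH1, had 15 and 12 counts against 52 and 39 (-1.53 ± 0.34, adjusted p 0.031). FTH1 was at 69.0 and 73.1 CPM against 98.2 and 91.1 CPM (-0.42 ± 0.11, adjusted p 0.13). PKMP1 is 89.7% identical to PKM over 1589 bases and FTH1P2 is 97.6% identical to FTH1 over 410 bases, so the origin of their reads is uncertain. RN7SL4P, a copy of the signal recognition particle RNA, fell from 71.8 and 67.0 to 33.6 and 38.6 CPM (-0.95 ± 0.21, adjusted p 0.028). Its near-identical Pol III gene RN7SL2, 98.3% identical over 235 bases, was at 485.2 and 476.9 CPM against 715.4 and 636.6 CPM and missed the threshold (-0.49 ± 0.21, adjusted p 0.52).

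Among the other called genes, AMIGO2, a cell adhesion protein, fell from 124.4 and 125.6 to 80.2 and 87.5 CPM (-0.58 ± 0.10, edgeR adjusted p 8.1e-04). ZFP36L1 encodes a protein that speeds decay of AU-rich messenger RNAs. It was the 1 called member of 31 immediate early genes tested, against 0.1% of all genes called lower. Its levels were 246.0 and 230.1 CPM against 337.0 and 331.4 CPM (-0.49 ± 0.10, adjusted p 0.019). The immediate early list had 22 members below 0 and a median of -0.12. Its members KLF10 (-0.41 ± 0.12, adjusted p 0.23) and KLF2 (-0.39 ± 0.12, adjusted p 0.27), named after their values were seen, missed the threshold. SNHG3, a snoRNA host whose exons overlap RCC1 and SNORA73A, was the 1 called of 16 snoRNA hosts, against the same 0.1%. It was at 222.5 and 216.3 CPM against 326.7 and 329.1 CPM (-0.58 ± 0.12, adjusted p 0.013). PTMA, prothymosin alpha, had -0.52 ± 0.11 (adjusted p 0.019), FLOT1, a lipid raft protein, -0.46 ± 0.10 (adjusted p 0.028) and the noncoding AC100810.3, which overlaps CLN8 on the opposite strand, -0.54 ± 0.12 (adjusted p 0.031).

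**Figure D4:**
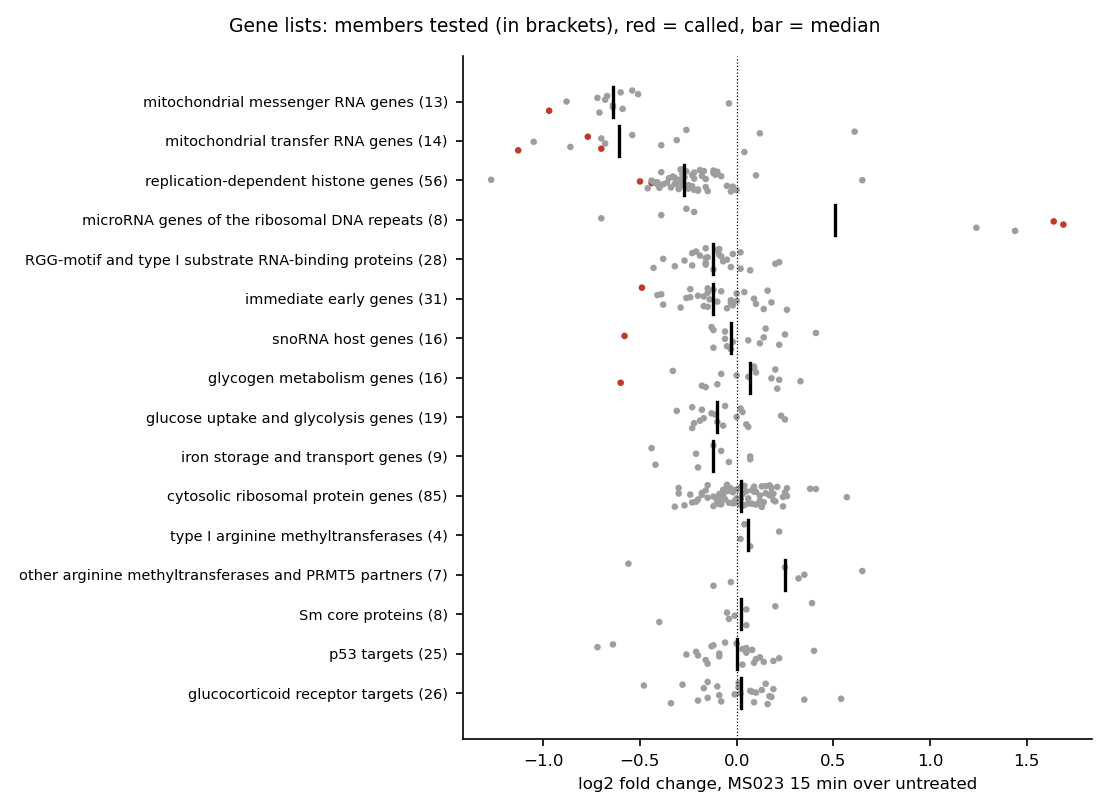
Log2 fold change of MS023 15 min over untreated for each tested member of 16 gene lists, with the number tested in brackets, called genes in red and the list's median as a bar. The medians of the mitochondrial messenger RNA, mitochondrial transfer RNA and histone genes, -0.64, -0.61 and -0.27, lie left of the dotted line at the median of all genes (0.00), while 3 transfer RNA and 3 histone genes lie above 0.

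None of the genes encoding the enzymes that MS023 inhibits was called. PRMT1, the main type I enzyme, was at 93.2 and 99.1 CPM with MS023 and 94.7 and 94.3 CPM without (0.02 ± 0.09, edgeR adjusted p 0.98), with exons that overlap ADM5 and AC011495.3. Of the 6 type I enzyme genes 4 passed the count filter, none was called, and their median was 0.06. PRMT2 had the smallest p among them, at 0.22 ± 0.11 (adjusted p 0.63). Among other methyltransferase and PRMT5 partner genes, 7 tested, none was called, 4 were above 0 and 3 below, and the median was 0.25. PRMT9, which makes symmetric marks on a splicing factor, was at 10.5 and 12.3 CPM against 7.53 and 6.90 CPM (0.65 ± 0.19, adjusted p 0.23). PRMT7, which places monomethyl marks, was at 43.9 and 43.2 CPM against 33.1 and 35.4 CPM (0.35 ± 0.11, adjusted p 0.31). PRMT5 was at 17.2 and 17.0 CPM against 13.7 and 13.8 CPM (0.32 ± 0.15, adjusted p 0.61), and overlaps its antisense gene PRMT5-AS1. WDR77, the binding partner of PRMT5, named after its value was seen, was at 4.97 and 3.30 CPM against 5.70 and 6.79 CPM (-0.56 ± 0.27, adjusted p 0.61).

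RNA-binding proteins with RGG motifs, the classic substrates of type I enzymes, leaned slightly lower with none called: 23 of 28 were below 0, 14 had both MS023 libraries below both untreated ones, as 19.2% of all genes did, and the median was -0.12. With library size alone that median was 0.06, where the median of all genes was 0.16, so its sign flipped. Scaling moves all genes of a library alike, so the list's place below all genes was bound to stay. FBL, the nucleolar methyltransferase fibrillarin, was at 29.2 and 33.3 CPM against 39.8 and 37.6 CPM (-0.32 ± 0.12, adjusted p 0.45). HNRNPA2B1, the member with the highest CPM, was at 252.1 and 272.4 CPM against 315.2 and 318.2 CPM (-0.27 ± 0.13, adjusted p 0.60). The 8 Sm core protein genes had a median of 0.02. SNRPB was at 29.6 and 33.0 CPM against 29.5 and 30.9 CPM (0.05 ± 0.12, adjusted p 0.96), with exons that overlap AL049650.1, and SNRPD1 had -0.40 ± 0.23 (adjusted p 0.69).

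Several lists held no called gene and medians close to 0. The 85 cytosolic ribosomal protein genes tested had a median of 0.02, of which 9 had a higher and 7 a lower value with an unadjusted p under 0.05, against 3.95% and 4.13% of all genes. RPL39 came nearest to a call, at 24.4 and 23.4 CPM against 17.0 and 15.2 CPM (0.57 ± 0.13, adjusted p 0.0503), and RPL13, with the highest CPM, had 0.03 ± 0.11. The 18 pause control genes tested had a median of -0.07, with HEXIM2, an inhibitor of P-TEFb, at 70.3 and 69.2 CPM against 93.0 and 93.7 CPM (-0.42 ± 0.10, adjusted p 0.055) and its relative HEXIM1 at 0.17 ± 0.10. The 15 heat shock genes had a median of -0.07, with DNAJA1 at -0.60 ± 0.16 (adjusted p 0.13) and HSPA8 at -0.09 ± 0.10. Medians were 0.00 for 25 p53 targets (TP53INP1 -0.64 ± 0.25, adjusted p 0.47, and PLK2 -0.09 ± 0.10) and 0.02 for 26 glucocorticoid receptor targets (TIPARP -0.28 ± 0.10, adjusted p 0.43, and DUSP1 -0.15 ± 0.11). They were -0.02 for 16 integrated stress response genes (SLC7A11 -0.26 ± 0.11, adjusted p 0.52, and DDIT4 0.02 ± 0.10) and -0.06 for 16 interferon genes (IRF7 0.33 ± 0.11, adjusted p 0.32). Glycolysis genes had -0.10 over 19 (ALDOA -0.23 ± 0.11, adjusted p 0.58), and iron genes -0.12 over 9 (FTL -0.04 ± 0.10).

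The authors' deposited table for the same comparison held 3 genes at an adjusted p under 0.05, MT-TC, H2BC20P and GYS1, all among the 40 above. Its log2 fold changes for them were -0.78, -0.69 and -0.62 in the authors' deposited table. All 40 genes had the same sign there, with a median standard error of 0.37 against 0.21 in edgeR's fit over the genes tested. For AC009299.1 the authors' deposited table gave 1.30 with a standard error of 0.44 and a p of 0.0032.

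The remaining comparisons share the MS023 15 min libraries that chose the 40 genes, so they place these genes beside other groups and are no independent support. Directly against GSK591 at 15 min, 239 of 21910 genes were called (1.09%), 17 higher (0.0776%) and 222 lower (1.01%) with MS023. This count fell to 0 without MS023 replicate 1 (edgeR) and to 76 with DESeq2. Of the 18 higher genes, 2 were higher than with GSK591 and 2 lower. MRPL17 was at 49.4 and 45.8 CPM with MS023, and differed by 0.42 from GSK591, and TIMM8A by 0.51. MIR3687-1 went the other way, at 1176 and 440.2 CPM with GSK591. Of the 22 lower genes, PKMP1 (4.95 and 8.35 CPM with GSK591) and GCLM (37.7 and 35.2 CPM) were also lower than with GSK591, by 2.32 and 0.51 on the log2 scale. Several main results, named after their values were seen, were not called between the inhibitors and stood between untreated and MS023 levels with GSK591. FP236383.3 was at 17790 and 16253 CPM (edgeR adjusted p 0.38), RNA5-8SN1 at 2558 and 2222 CPM (0.3) and H2BC20P at 101.0 and 106.3 CPM (0.26). The ribosomal DNA share was 8.5% and 8.03% with GSK591. GSK591 against untreated was not tested here.

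Most of the 40 genes differed between 3 h and 15 min of MS023. Both untreated libraries carry the 15 min label, so longer exposure and elapsed time cannot be told apart in this comparison. In 3 h against 15 min, 2640 genes were called (12%), 1676 higher (7.65%) and 964 lower (4.4%). Of the 18 genes higher at 15 min, 14 were lower at 3 h than at 15 min and 3 higher, and of the 22 lower ones 18 were higher at 3 h. AC009299.1 was at 135.2 and 72.6 CPM at 3 h, and GYS1 at 297.8 and 358.5 CPM. MIR3687-1 and MIR663AHG were higher still at 3 h, at 1343 and 875.3 CPM and at 310.7 and 222.4 CPM. With Dex beside MS023 for 15 min, 1966 genes were called against MS023 alone (8.97%), 1293 higher (5.9%) and 673 lower (3.07%), among them GYS1, at 100.8 and 103.0 CPM, which was lower with Dex by 0.86 ± 0.10 on the log2 scale (edgeR adjusted p 1.1e-07). Against MS023 alone, 9 of the 18 higher genes were called lower with Dex and 3 higher. Of the 22 lower ones, 7 were called higher with Dex and 1 lower. FP236383.3 was at 17419 and 11305 CPM with Dex (edgeR adjusted p 0.019) and AC009299.1 at 180.4 and 118.3 CPM (0.01), both lower than with MS023 alone. MT-TC was higher with Dex, at 200.7 and 230.3 CPM (0.64, adjusted p 2.7e-05), and POLR2G lower, at 11.3 and 12.3 CPM (-0.79, adjusted p 3.0e-04).

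**Figure D5:**
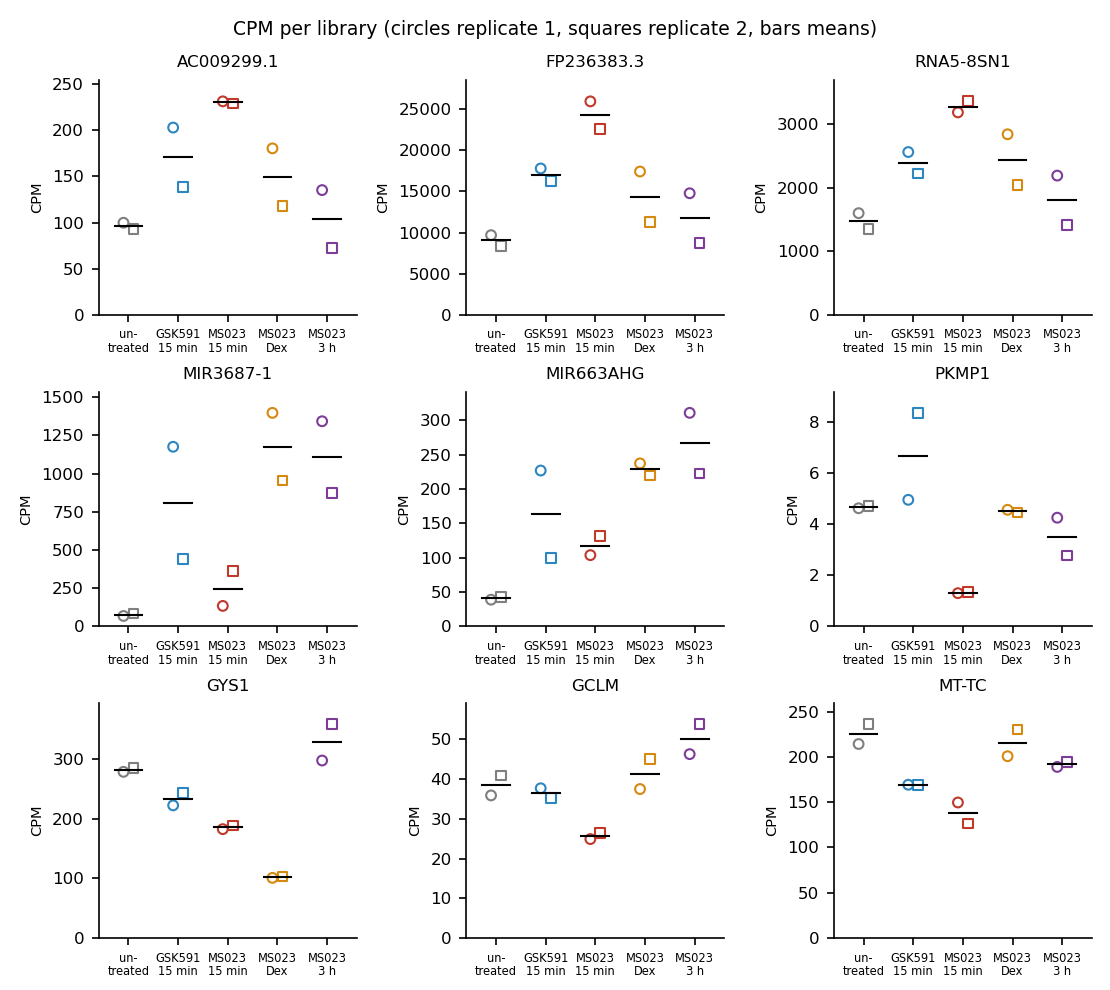
CPM per library of 9 called genes in untreated cells and in the GSK591 15 min, MS023 15 min, MS023 with Dex 15 min and MS023 3 h groups, each panel on its own axis from 0. AC009299.1, FP236383.3 and RNA5-8SN1 are highest in the MS023 15 min libraries, MIR3687-1 and MIR663AHG are higher at 3 h, and GYS1 is lowest with Dex, at 100.8 and 103.0 CPM.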

How the data were processed

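PRO-seq read counts per gene were deposited by the authors as 1 table of 58780 genes and 14 libraries. Per the submitters' processing notes, featureCounts 2.0.1 (Subread), hg38 and DESeq2 were used. The aligner, counting feature, strand setting and duplicate handling are not given in the sources used here. The authors' deposited DESeq2 table supplied log2 fold changes with standard errors, p-values and adjusted p-values, and a mean signal per gene. Its test score, also deposited, was not printed.

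Counts were tested as deposited with edgeR 4.0.16 (R 4.3.3): TMM scaling, edgeR's expression filter, all 14 libraries in 1 fit with a coefficient per group (7 residual degrees of freedom, biological coefficient of variation 0.073), quasi-likelihood test, Benjamini-Hochberg adjustment. All 14 enter so that the groups share 1 estimate of spread. All 58780 identifiers matched GENCODE 29 (GRCh38), which gave coordinates and the 22731 blank symbols. Sequence likeness came from BLAST+ 2.17.0. Depth was 5768312 to 9606938 counts in the 4 libraries compared. On simulated data for this comparison (21452 genes tested), edgeR called 74.5% of 200 genes changed by 1 on the log2 scale and 2 unchanged genes. DESeq2 1.42.0 called 64% of the changed genes.

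The text names the 15 largest rises and falls among called genes, PRMT1, PRMT5, SNRPB, GYS1, PKM and FTH1, and from each list every called member or else the most abundant and the one with the smallest p. The remaining called genes, and members said to show a list's spread, were chosen after their values were seen. The members and the lists were chosen with earlier results of these data known. Alternatives covered scaling, filter, test, samples in the fit, a replicate block and leaving out each library.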

Additional observations from a re-analysis of the deposited data

Results flagged for a closer look

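Genes called at 15 min of MS023 against untreated cells were singled out here where a further direct test passed too. That test was against GSK591 at 15 min, or of 3 h against 15 min of MS023 (edgeR adjusted p under 0.05). The level of these genes thus differed between inhibitors or times. No untreated 3 h group exists in the series, so longer exposure and elapsed time cannot be told apart. Both tests share the MS023 15 min libraries with the choice of genes, which favours a return toward the other groups. All values are log2 differences.

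Against GSK591 at 15 min, the values (MS023 minus GSK591) were -2.32 for PKMP1, -0.51 for GCLM, -1.71 for MIR3687-1, -1.88 for MIR3687-2, 0.42 for MRPL17 and 0.51 for TIMM8A.

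From 15 min to 3 h of MS023, ribosomal DNA genes that had risen were lower: RNA5-8SN1 by -0.86, RNA5-8SN2 by -0.84, RNA5-8SN3 and RNA5-8SP10 by -0.83 each, FP236383.2 and FP671120.3 by -1.04 each, and FP236383.3 and FP671120.4 by -1.05 each. The other higher genes that came down were AC009299.1 (-1.14), CR392039.3 (-0.85), TIMM8A (-0.75), AC069224.1 (-0.62), MRPL17 (-0.56) and AC099522.2 (-0.54). MIR3687-1 (2.17), MIR3687-2 (2.36) and MIR663AHG (1.19) were higher still at 3 h.

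Among genes lower at 15 min, those higher at 3 h included the pseudogenes PKMP1 (1.43), FTH1P2 (1.16), RN7SL4P (0.92) and MTND1P23 (0.54), and the mitochondrial MT-TA (0.82), ATP8 (0.76) and MT-TC (0.47). In the histone clusters the values were 1.01 for HIST1H4PS1, 0.61 for AC239868.1, 0.60 for H2BC18, 0.43 for H2BC20P, 0.38 for H2BC4 and 0.34 for H2BC19P. GCLM (0.96), GYS1 (0.82), AMIGO2 (0.56), PTMA (0.36) and AC100810.3 (1.23) completed the set.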

How the results depend on the processing

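The 40 called genes kept their direction under every alternative that gave them a value, which is no support for them. Their MS023 and untreated libraries did not overlap, and every alternative reused the same counts, so a reversal could hardly occur. Against the 40, the count was 194 (13 higher, 181 lower) with nuclear library size alone, 101 without a count filter and 176 with just the 4 libraries in the fit, while library size alone gave 28 (25 higher, 3 lower, 21 shared) and DESeq2 36 (11 higher, 25 lower, 23 shared). Leaving out each library in turn gave 2 to 22, with the lone sample assumed to vary like the other groups: 2 without untreated replicate 2, 17 without untreated replicate 1, 18 without MS023 replicate 1 and 22 without MS023 replicate 2. With mitochondrial and ribosomal DNA repeat genes left out, an alternative chosen after seeing the data, 33 were called. The cause of these shifts was not tested, apart from scaling, where library size alone moved the median of all genes by 0.16 and nuclear library size alone by -0.16.

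For MS023 against GSK591 (239 called), library size alone gave 29, DESeq2 76 and leaving out a MS023 library 0 to 288. For 3 h against 15 min (2640 called), DESeq2 gave 1426 and leaving out a library 1160 to 1789, and library size alone turned 1676 higher and 964 lower into 778 and 1391. For Dex beside MS023 (1966 called), DESeq2 gave 1020, leaving out a library 641 to 1572, and library size alone turned 1293 higher and 673 lower into 533 and 1317. The mitochondrial difference was -8.35 points without ribosomal DNA repeat and Pol III genes.

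A replicate block gave 47 genes (21 higher, 26 lower), with all 40 kept. Correlations of the deviations of same-numbered libraries ran from -0.144 to 0.267 over 21 pairs of groups, with 7 over 0.1, among them MS023 15 min with untreated (0.155). Since not every pair was over 0.1, the main fit did not pair samples by number. This rule does not settle whether the MS023 15 min and untreated libraries are paired. The block gave 248, 2739 and 2034 calls for the other comparisons.

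Depth limits the low genes, such as PKMP1 with 9 to 43 counts a library. No spike-in counts entered the scaling, so a change common to all genes would not be seen.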
